A study of Mus musculus with 9 samples.

Results

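The Krüppel-like factors are DNA-binding proteins of the Sp/KLF superfamily, and 10 of their genes were followed here: Klf2, Klf3, Klf4, Klf5, Klf6, Klf7, Klf9, Klf10, Klf13 and Klf16. A gene was included when the accession of an array probe matched its symbol in the RefSeq gene table. Each of the 10 genes was represented by 1 probe printed at 1 spot, and they make up 10 of the 26864 features that were tested. A feature is 1 probe per gene, or per accession where no symbol matched, the one with the highest mean over all arrays. Of the 26864 features, 16089 had a symbol, and the shares of all features given below are over both kinds.

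Total RNA of J1 cells, a mouse embryonic stem cell line of the 129S4/SvJae strain, was labelled with Cy3 and hybridised to 9 Agilent arrays. The 3 groups held 3 samples each. One received 3 µM CHIR99021, which inhibits the kinase GSK3 and so stabilises beta-catenin, and another received 1 mM AICAR, a nucleoside that cells turn into an activator of the kinase AMPK. The third received the solvent DMSO alone. All groups were treated for 24 h and shared the same culture conditions, on gelatin without feeder cells and in medium with knockout serum replacement and 1000 U/mL of the cytokine LIF. The replicates are numbered but are not described as separate cultures, so the p-values below reflect only how far these samples spread, and part of that may be technical. Each group was hybridised on a slide of its own, so slide and treatment cannot be told apart. Below, raised, lowered, rose and fell describe the arrays of a treated group relative to DMSO, under that limit.

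KLF proteins bind GC-rich boxes and CACCC boxes through zinc fingers near the carboxyl end, and the rest of the protein decides which cofactors they recruit. Klf2, Klf4 and Klf5 help mouse embryonic stem cells to renew themselves, and they overlap in what they do. LIF acts through Stat3 on Klf4 and Klf5, while Klf2 is known to be sensitive to the Mek and Erk kinases. Klf3 is a repressor that works with the C-terminal binding proteins, whereas Klf9, Klf10, Klf13 and Klf16 recruit the co-repressor Sin3a.

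A level below is the log2 of a spot's processed intensity minus the 75th percentile of that array, so 0 is the 75th percentile and a difference of 1 is a doubling. The percentile itself lay between 567 and 617 intensity units, and 62.8% to 67.2% of spots on an array were well above background. All 10 Klf probes were well above background on all 9 arrays, none was saturated, and none was marked as an outlier. Probes differ in how brightly they report the same amount of RNA, so levels are compared between groups for 1 gene and never between genes. Log2 profiles of 2 arrays correlated at 0.995 to 0.997 within a group and at 0.973 to 0.983 between groups, across features of which many share their regulation.

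The labelled cell type was checked against marker genes. All 10 embryonic stem cell markers were well above background on every array, and their summed level, in multiples of the 75th percentile, was 565 to 591 with CHIR99021, 576 to 617 with AICAR and 636 to 650 with DMSO. Feeder fibroblast markers summed to 2.32 to 2.46 with CHIR99021, 3.37 to 4.02 with AICAR and 2.14 to 2.29 with DMSO. Of those 10 markers, 5 were well above background on all arrays, and Lum, Postn and Fap were not on any array. Primitive endoderm markers, 8 of 10 well above background throughout, summed to 15.7 to 16.6 with CHIR99021, 14.9 to 16.4 with AICAR and 11.8 to 13.0 with DMSO. Trophectoderm markers, 4 of 9 well above background throughout and Tpbpa on no array, summed to 22.3 to 23.5 with CHIR99021, 21.0 to 21.1 with AICAR and 12.1 to 12.8 with DMSO. Endothelial and blood markers, 5 of 9 well above background throughout and Cdh5 and Emcn on no array, summed to 12.7 to 15.1 with CHIR99021, 12.4 to 14.2 with AICAR and 9.89 to 10.8 with DMSO. The stem cell sum was lower in both treated groups than with DMSO, and the other 4 sums, feeder fibroblast included, were higher. The brightest probe gave 88.4% to 90.4% of the primitive endoderm sum on an array (Lama1) and 90.3% to 94.5% of the blood sum (Kdr). The trophectoderm share was 63.8% to 79.5% (Tfap2c), the feeder share 44.6% to 67.9% (Thy1) and the stem cell share 51.0% to 60.5% (Dppa5a). These shares do not tell which genes moved a sum. Against DMSO, Lama1, Kdr and Tfap2c were higher with both compounds, Thy1 with AICAR only and Dppa5a with neither (limma adjusted p under 0.05). The stem cell marker Dnmt3l differed by -2.27 log2 units with CHIR99021 and -2.67 with AICAR. The feeder marker Pdgfrb differed by 2.13 and 2.32, and the trophectoderm marker Cdx2 by 7.27 and -1.91, in the same order. The mean level of Cdx2 was -5.42 with DMSO and -7.33 with AICAR. It was well above background on 0 AICAR arrays, so the size of its AICAR difference is uncertain. Members of a list went both ways. With CHIR99021 against DMSO, 3 stem cell markers were higher and 3 lower of 10 tested, 2 and 2 of 7 feeder markers, 5 and 3 of 10 endoderm markers, 4 and 1 of 6 trophectoderm markers and 2 and 3 of 7 blood markers. With AICAR the counts were 4 and 3, 3 and 3, 6 and 3, 4 and 2, and 4 and 1 in the same order of lists. Some of these calls rest on dim probes. Ptprc, higher with AICAR, was well above background on 3 AICAR arrays, 1 DMSO array and 1 CHIR99021 array. Without the AICAR arrays it would not have been tested. Dcn and Cdx2, lower with AICAR, were well above background on 0 AICAR arrays. Gata3, lower with both compounds, was so on 1 array of each, and Afp, lower with CHIR99021, on 0 CHIR99021 arrays. Of all features, 30.4% were higher and 20.5% lower with CHIR99021 than with DMSO, and 30.9% and 29.6% with AICAR. The part of other cell types in the Klf results was not tested.

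RefSeq promoters (assembly GRCm38.p6) were available for 7 of the 10 genes, and the 250 bases before each start were searched on both strands. The searched motifs were a KLF site, GGGNGNGGG, a TCF/LEF site, CTTTGA, and a STAT site, TTCNNNGAA, with N as any base. Matches were counted also where they overlapped each other. The promoters of Klf2, Klf3, Klf4 and Klf7 are shown. Of these 7 genes, Klf3, Klf4 and Klf7 had the largest differences from DMSO. Klf2 is shown beside them by choice, although Klf13 differed more (-0.71 with AICAR, against 0.54 for Klf2 with CHIR99021). All 4 hold KLF sites, as does Klf13, whereas Klf6 and Klf9 hold none. Each is printed 5′ to 3′ on the gene's strand, with every base of a KLF site match in capitals.
Klf2: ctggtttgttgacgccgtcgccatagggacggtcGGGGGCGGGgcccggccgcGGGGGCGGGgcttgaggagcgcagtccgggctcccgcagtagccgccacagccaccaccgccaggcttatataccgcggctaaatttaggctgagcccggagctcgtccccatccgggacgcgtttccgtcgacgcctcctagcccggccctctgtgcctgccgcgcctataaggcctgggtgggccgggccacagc
Klf3: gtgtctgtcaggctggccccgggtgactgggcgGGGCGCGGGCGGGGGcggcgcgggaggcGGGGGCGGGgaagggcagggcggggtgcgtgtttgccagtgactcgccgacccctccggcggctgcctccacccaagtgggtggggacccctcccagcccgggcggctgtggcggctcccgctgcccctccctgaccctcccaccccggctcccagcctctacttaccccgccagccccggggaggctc
Klf4: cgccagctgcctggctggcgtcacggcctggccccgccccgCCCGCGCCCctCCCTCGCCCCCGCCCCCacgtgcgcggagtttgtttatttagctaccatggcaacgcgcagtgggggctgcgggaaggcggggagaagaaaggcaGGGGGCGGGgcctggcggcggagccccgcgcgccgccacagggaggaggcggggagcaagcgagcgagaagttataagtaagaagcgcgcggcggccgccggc
Klf7: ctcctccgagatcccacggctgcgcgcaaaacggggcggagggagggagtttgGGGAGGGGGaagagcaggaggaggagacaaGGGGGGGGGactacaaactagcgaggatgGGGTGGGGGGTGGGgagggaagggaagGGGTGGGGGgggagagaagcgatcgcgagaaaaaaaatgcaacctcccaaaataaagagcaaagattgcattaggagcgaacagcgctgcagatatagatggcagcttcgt
The first is chr8:72318812-72319061 on the plus strand, and the second is chr5:64803271-64803520 on the plus strand. The third is chr4:55532476-55532725 and the last chr1:64121390-64121639, both on the minus strand. Klf4 and Klf7 had 5 KLF site matches each, Klf3 had 3, Klf2 and Klf13 had 2 each, and Klf6 and Klf9 had none. In the Klf2, Klf3 and Klf7 promoters each match lay on the gene's strand as GGGNGNGGG, and in Klf4 4 of the 5 lay on the other strand. Of all 32851 promoters of the same length, 25.6% held such a match, and the median GC content of all was 52.4%, against 59.2% (Klf7) to 78.4% (Klf3) in the 7 Klf promoters. None of the 7 held the TCF/LEF letters, which 13.8% of all promoters hold. The STAT letters were found once, in Klf9, and 7.02% of all promoters hold them. A match describes letters in this window and does not show that a factor binds there.

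**Figure D1:**
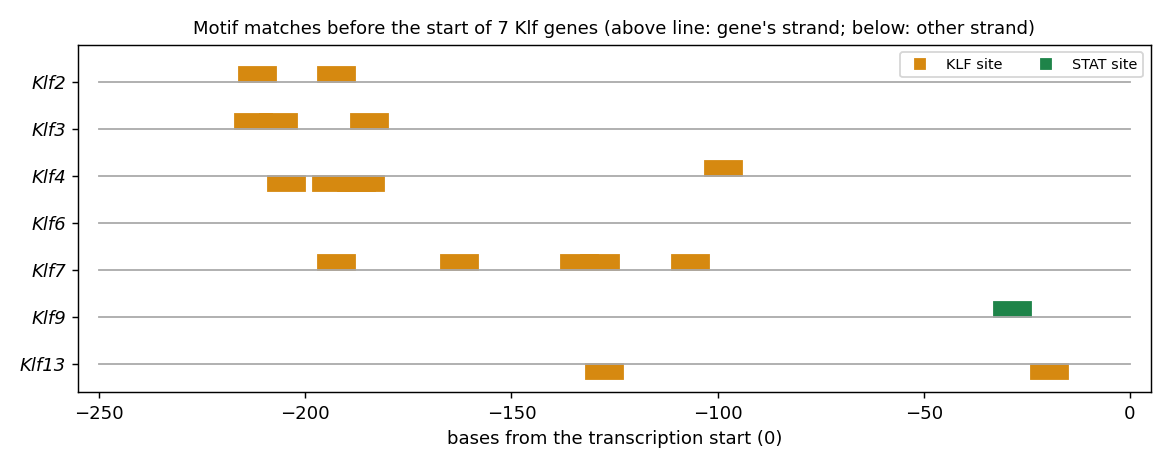
Positions of the motif matches in the 250 bases before the start of 7 Klf genes, in bases from the transcription start. Boxes above a line are on the gene's strand and boxes below it on the other strand. Klf4 and Klf7 hold 5 KLF sites each, Klf6 holds none of the motifs, and the STAT site is that of Klf9.

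CHIR99021 raised 5 of the 10 Klf genes and lowered 2 relative to DMSO, by limma with Benjamini-Hochberg adjustment over all features at 0.05. Of all features, 30.4% were higher and 20.5% lower in that comparison, 51% in all, beside 7 of the 10 genes. AICAR raised 2 Klf genes and lowered 3 relative to DMSO, where 30.9% of all features were higher and 29.6% lower, 60.5% in all, beside 5 of the 10 genes. Between the treatments, 6 were higher and 3 lower with CHIR99021 than with AICAR, against 36.2% and 24.6% of all features, which is 60.8% in all beside 9 of the 10 genes. The median log2 fold change of the 10 genes was 0.38 for CHIR99021 minus DMSO, -0.15 for AICAR minus DMSO and 0.34 for CHIR99021 minus AICAR, beside 0.07, 0.03 and 0.10 over all features. The comparisons with DMSO share the DMSO arrays, and all of them share 1 estimate of the spread. In RNA of whole cultures, fewer cells that express a gene and less of its RNA per cell cannot be told apart.

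The 3 arrays of a group did not overlap with those of DMSO for 9 of the 10 genes with CHIR99021, 6 above and 3 below, where 63.2% of all features did not overlap. With AICAR the groups were separate for 6 genes, 2 above and 4 below DMSO, against 67% of all features. CHIR99021 and AICAR arrays were separate for 9 genes, 6 above and 3 below, against 65.3% of all features. The median SD of the 10 genes within a group was 0.0625 with CHIR99021, 0.0706 with AICAR and 0.0391 with DMSO. Over all features it was 0.0851, 0.111 and 0.0748 in the same groups.

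**Figure D2:**
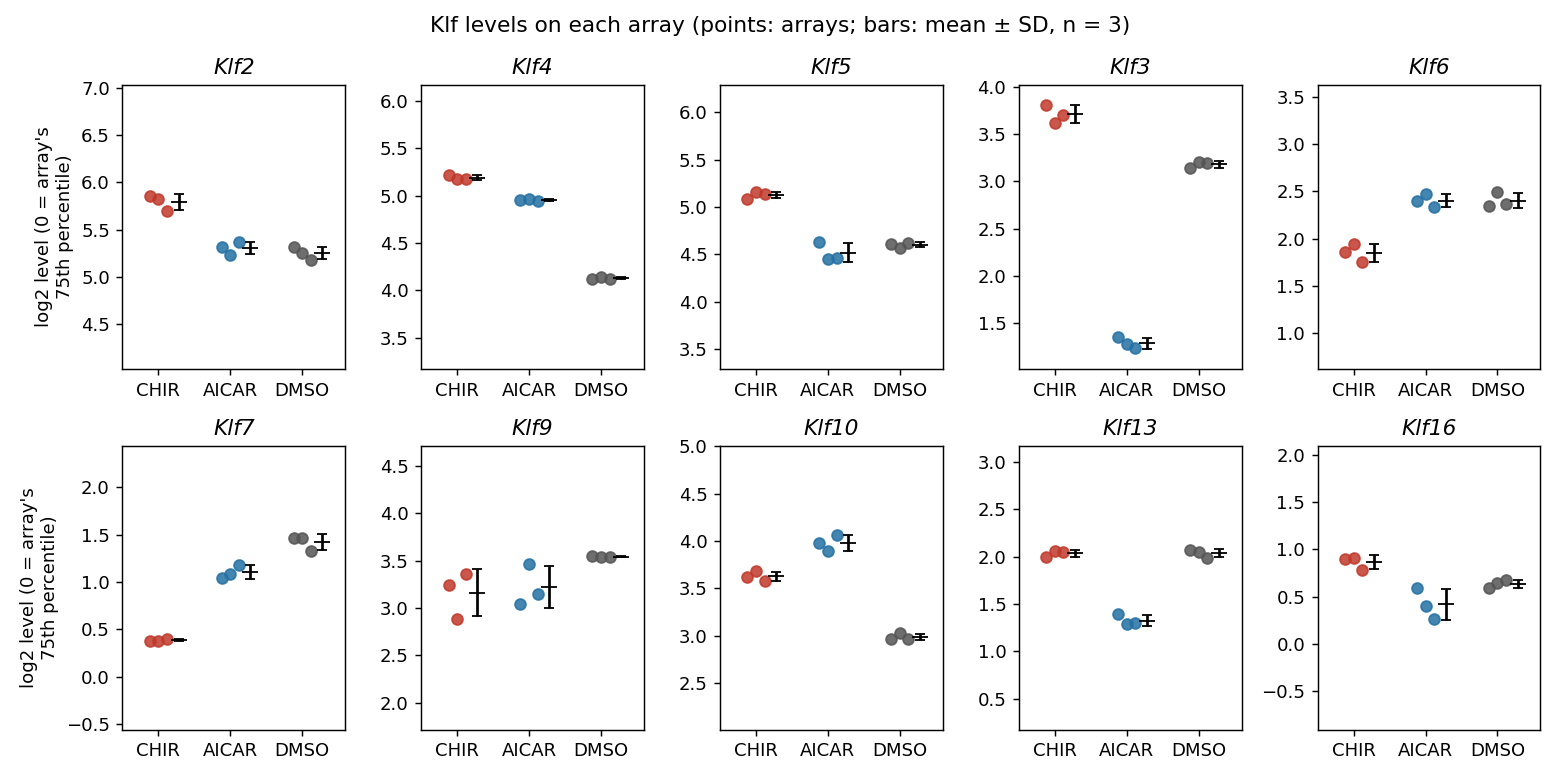
Log2 level of each Klf gene on each array, with the mean and SD (n = 3) beside the points, where 0 is the array's 75th percentile and every panel spans the same range of log2 units. Klf3 is high with CHIR99021 (3.62 to 3.80) and low with AICAR (1.24 to 1.35), while Klf4 and Klf10 lie above DMSO in both treatments.

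Klf4, the reprogramming factor that also acts downstream of LIF, was raised by both compounds. Its level on the 3 arrays was 5.22, 5.18 and 5.17 with CHIR99021, 4.96, 4.96 and 4.95 with AICAR and 4.12, 4.14 and 4.13 with DMSO. The 3 groups did not overlap, in the order CHIR99021, AICAR, DMSO. CHIR99021 raised Klf4 by 1.06 ± 0.04 on the log2 scale (SE, limma adjusted p = 6.68e-07), which is 2.09-fold, and AICAR raised it by 0.83 ± 0.04 (adjusted p = 1.38e-06), which is 1.77-fold. CHIR99021 minus AICAR was 0.23 ± 0.04 (limma adjusted p = 0.00104). That last difference did not pass under other scalings, being 0.0064 by quantile normalization (adjusted p = 0.899), 0.013 in the deposited series matrix (adjusted p = 0.793) and 0.019 by the spike-in probes (adjusted p = 0.893). The rise over DMSO passed for both compounds in every alternative run.

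Klf2, which sustains self-renewal when the Mek and Erk kinases are inhibited, was raised by CHIR99021 alone of the 2 compounds under the 75th percentile scaling. Its levels were 5.85, 5.83 and 5.69 with CHIR99021, 5.31, 5.23 and 5.36 with AICAR and 5.32, 5.26 and 5.18 with DMSO. All CHIR99021 arrays were above the others, while AICAR and DMSO arrays overlapped. CHIR99021 minus DMSO was 0.54 ± 0.06 (SE, limma adjusted p = 0.000272) and CHIR99021 minus AICAR was 0.49 ± 0.06 (adjusted p = 0.000288). AICAR minus DMSO was 0.05 ± 0.06 (limma adjusted p = 0.513), with a 95% interval of -0.10 to 0.20. The AICAR value depended on the scaling: it was 0.25 by quantile normalization (adjusted p = 0.0118) and 0.24 in the series matrix (adjusted p = 0.0142). With spike-in scaling CHIR99021 minus AICAR was 0.27 and did not pass (adjusted p = 0.10).

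Klf5, needed for the earliest embryonic lineages and for stem cell proliferation, had a like pattern. Its levels were 5.09, 5.15 and 5.14 with CHIR99021, 4.63, 4.45 and 4.46 with AICAR and 4.61, 4.57 and 4.62 with DMSO. The CHIR99021 arrays lay above both other groups, which overlapped. Klf5 rose by 0.53 ± 0.06 with CHIR99021 over DMSO (SE, limma adjusted p = 0.00018) and was higher by 0.61 ± 0.06 than with AICAR (adjusted p = 4.46e-05). AICAR minus DMSO was -0.08 ± 0.06 (limma adjusted p = 0.244), with a 95% interval of -0.22 to 0.05. AICAR replicate 1 decided that call: without it the difference from DMSO was -0.14 and passed (adjusted p = 0.0335). The sign of the AICAR difference was positive under quantile, spike-in and series matrix scaling.

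By root mean square difference over the 9 arrays, after the DMSO mean of each gene was subtracted, Klf2 and Klf5 were the closest pair among the 10 genes at 0.112 log2 units. Klf5 and Klf16 followed at 0.200, Klf2 and Klf16 at 0.261 and Klf4 and Klf10 at 0.267. The farthest pair was Klf3 and Klf10 at 1.67. Among all other genes with a symbol, P3h1, Ube4a and Stn1 lay nearest to Klf2 (0.0393, 0.050 and 0.0549, where the median over all genes was 0.446). Dyrk1b, Arhgef10l and Ctsb lay nearest to Klf4 (0.0790, 0.0800 and 0.0841, median 0.833), and Peak1, Cdkn2aipnl and Npepl1 nearest to Klf5 (0.0505, 0.0506 and 0.0519, median 0.439). These neighbours were not stable, and 0 of the 3 genes stayed among the nearest 3 for any of these factors by quantile normalization or in the series matrix. When single arrays were left out, 1 to 2 of the 3 stayed for Klf2, 0 to 2 for Klf4 and 1 to 3 for Klf5, with 0 for Klf4 without AICAR replicate 1.

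Klf3, the repressor that recruits C-terminal binding proteins, had the largest AICAR difference of the 10 genes. Its differences from DMSO had opposite signs with the compounds. Its levels were 3.80, 3.62 and 3.70 with CHIR99021, 1.35, 1.28 and 1.24 with AICAR and 3.14, 3.20 and 3.20 with DMSO. No group overlapped another, with CHIR99021 highest and AICAR lowest. AICAR minus DMSO was -1.89 ± 0.06 for Klf3 (SE, limma adjusted p = 3.03e-07), which is 3.71-fold lower. CHIR99021 raised it by 0.53 ± 0.06 (adjusted p = 0.000217), or 1.44-fold. The gap of CHIR99021 over AICAR was 2.42 ± 0.06 (limma adjusted p = 7.35e-08), a 5.34-fold difference. All 3 calls held in every alternative run.

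Klf6 and Klf7, closely related activators of the family, were lowered by CHIR99021. Klf7, which acts in neuronal development, had levels of 0.38, 0.38 and 0.40 with CHIR99021, 1.04, 1.08 and 1.18 with AICAR and 1.47, 1.47 and 1.33 with DMSO. The groups were separate, with DMSO highest and CHIR99021 lowest. CHIR99021 minus DMSO was -1.04 ± 0.06 (SE, limma adjusted p = 4.95e-06), which is 2.05-fold lower, and CHIR99021 minus AICAR was -0.72 ± 0.06 (adjusted p = 1.83e-05). AICAR minus DMSO was -0.32 ± 0.06 (limma adjusted p = 0.00182), 1.25-fold lower, but with spike-in scaling it was -0.16 and did not pass (adjusted p = 0.288).

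Klf6, known as an early response gene in injured tissue, had levels of 1.86, 1.94 and 1.75 with CHIR99021, 2.40, 2.47 and 2.33 with AICAR and 2.35, 2.50 and 2.36 with DMSO. Every CHIR99021 array was below every other array, and AICAR and DMSO arrays overlapped. CHIR99021 minus DMSO was -0.55 ± 0.07 (SE, limma adjusted p = 0.000376), and CHIR99021 minus AICAR was also -0.55 ± 0.07 (adjusted p = 0.000236). AICAR minus DMSO was -0.0030 ± 0.07 (limma adjusted p = 0.974), with a 95% interval of -0.16 to 0.16. The fall with CHIR99021 passed in every alternative run.

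Of the 4 genes that encode Sin3a-recruiting factors, Klf10, an early response gene of TGF-beta, rose with both compounds. Its levels were 3.62, 3.68 and 3.58 with CHIR99021, 3.98, 3.89 and 4.06 with AICAR and 2.97, 3.03 and 2.97 with DMSO. The groups were separate, and here AICAR was highest and DMSO lowest. Klf10 rose by 0.64 ± 0.06 with CHIR99021 (SE, limma adjusted p = 5.76e-05), or 1.56-fold, and by 0.99 ± 0.06 with AICAR (adjusted p = 3.63e-06), or 1.99-fold. CHIR99021 minus AICAR was -0.35 ± 0.06 (limma adjusted p = 0.000898). All 3 calls held in every alternative run.

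Klf13, first studied as a regulator of a chemokine gene in T cells, fell with AICAR. Its levels were 1.99, 2.06 and 2.06 with CHIR99021, 1.40, 1.29 and 1.30 with AICAR and 2.07, 2.05 and 1.99 with DMSO. The AICAR arrays lay below both other groups, which overlapped. AICAR minus DMSO was -0.71 ± 0.05 (SE, limma adjusted p = 1.05e-05), which is 1.64-fold lower, and CHIR99021 minus AICAR was 0.71 ± 0.05 (adjusted p = 8.88e-06). CHIR99021 minus DMSO was -0.00099 ± 0.05 (limma adjusted p = 0.989), with a 95% interval of -0.12 to 0.12.

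Klf9, a gene induced by glucocorticoids and thyroid hormone, was lower in the treated arrays but varied among them. Its levels were 3.24, 2.88 and 3.36 with CHIR99021, 3.04, 3.47 and 3.15 with AICAR and 3.55, 3.54 and 3.54 with DMSO. All treated arrays lay below all DMSO arrays, while CHIR99021 and AICAR arrays overlapped. The SD was 0.25 with CHIR99021 and 0.22 with AICAR, against 0.0053 with DMSO. CHIR99021 minus DMSO was -0.38 ± 0.14 (SE, limma adjusted p = 0.0543, 95% interval -0.71 to -0.05), and AICAR minus DMSO was -0.32 ± 0.14 (adjusted p = 0.0817, 95% interval -0.65 to 0.0058). Neither passed at 0.05, and both calls turned on single arrays. Without CHIR99021 replicate 3 or AICAR replicate 2 the CHIR99021 difference passed (adjusted p = 0.0331 and 0.0335), and without AICAR replicate 2 or CHIR99021 replicate 2 so did the AICAR difference (adjusted p = 0.0251 and 0.0364). By quantile, spike-in, series matrix and normexp scaling the CHIR99021 difference also passed (adjusted p = 0.0368, 0.0352, 0.0406 and 0.00468), and after normexp so did the AICAR difference (adjusted p = 0.0111). With a trend in eBayes the CHIR99021 and AICAR differences both passed (limma adjusted p = 0.0167 and 0.0313). The CHIR99021 difference passed with the filter on all 9 arrays (limma adjusted p = 0.0400). It passed too in the fit to the groups compared only (limma adjusted p = 0.0480). CHIR99021 minus AICAR was -0.06 ± 0.14 (limma adjusted p = 0.742), with a 95% interval of -0.39 to 0.27.

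Klf16, a repressor of the same branch as Klf9 and Klf13, had levels of 0.90, 0.91 and 0.78 with CHIR99021, 0.59, 0.39 and 0.26 with AICAR and 0.59, 0.64 and 0.68 with DMSO. The CHIR99021 arrays lay above the others, and the ranges of AICAR and DMSO arrays overlapped at their edge. Klf16 was higher with CHIR99021 than with AICAR by 0.44 ± 0.09 (SE, limma adjusted p = 0.00228), a difference that was 0.23 with spike-in scaling and did not pass there (adjusted p = 0.126). CHIR99021 minus DMSO was 0.23 ± 0.09 (limma adjusted p = 0.0572, 95% interval 0.03 to 0.42) and AICAR minus DMSO was -0.22 ± 0.09 (adjusted p = 0.0552, 95% interval -0.42 to -0.02). Without AICAR replicate 1 both passed (adjusted p = 0.0179 and 0.00707), and without AICAR replicate 3 the CHIR99021 difference did (adjusted p = 0.0304). With the filter on all 9 arrays both passed (limma adjusted p = 0.0451 and 0.0442), as with a trend in eBayes (0.0267 and 0.0261). The CHIR99021 difference passed in the fit to the groups compared only (limma adjusted p = 0.0170). After normexp the AICAR difference passed (limma adjusted p = 0.0151).

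**Figure D3:**
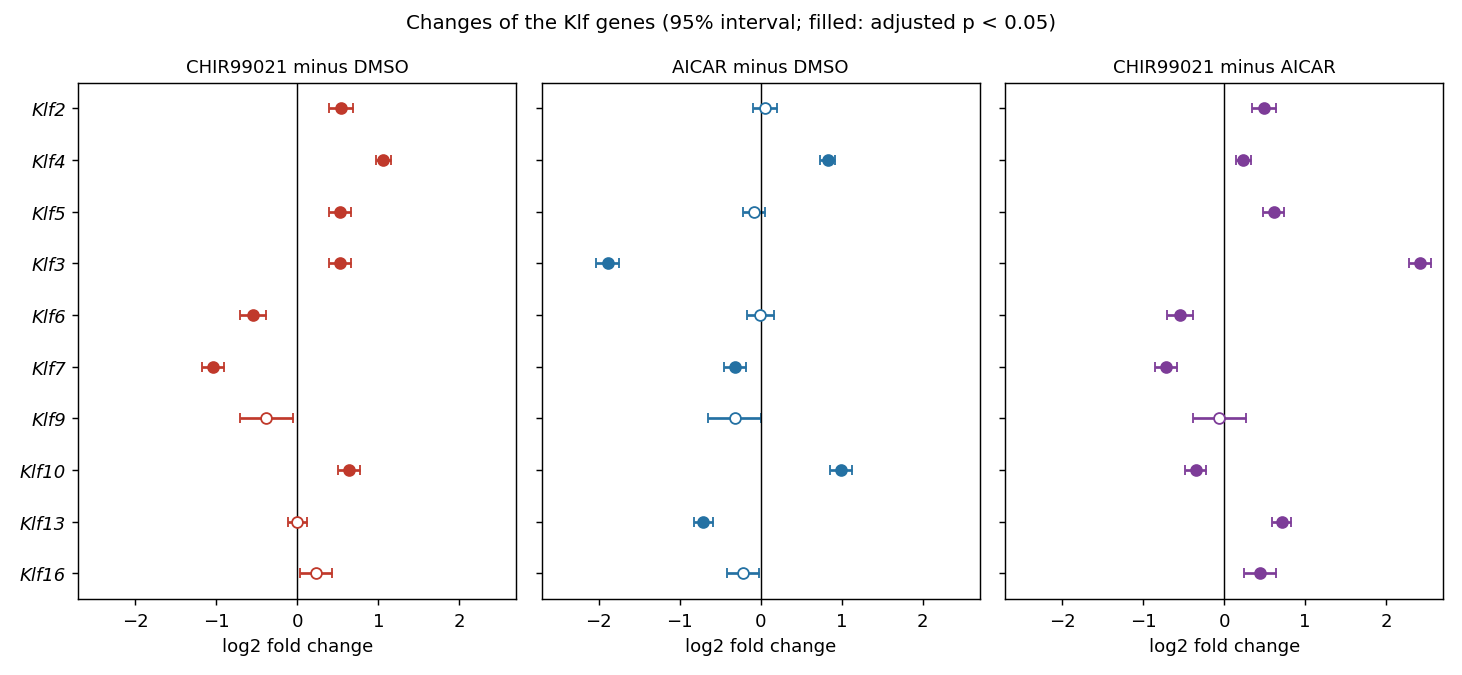
Log2 fold change of each Klf gene with its 95% interval in the 3 comparisons, filled where the limma adjusted p is below 0.05. AICAR minus DMSO for Klf3 (-1.89) and CHIR99021 minus AICAR for Klf3 (2.42) lie farthest from 0, and the widest intervals are those of Klf9.

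The scaling of the arrays set where small differences fell. The 10 spike-in probes lay 1.87 to 1.93 log2 units above the 75th percentile with CHIR99021, 1.56 to 1.87 with AICAR and 1.81 to 1.88 with DMSO. Scaling by these probes moved the median log2 fold change over all features to 0.02 for CHIR99021 minus DMSO, 0.19 for AICAR minus DMSO and -0.11 for CHIR99021 minus AICAR. Of the features called different, 59.7%, 51.1% and 59.5% were the higher ones in those 3 comparisons, and with spike-in scaling 50.5%, 70.1% and 32.3%. The calls of Klf3, Klf4, Klf10 and Klf13 with AICAR against DMSO and of all 7 Klf genes with CHIR99021 against DMSO passed in the same direction under all 5 scalings plotted.

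**Figure D4:**
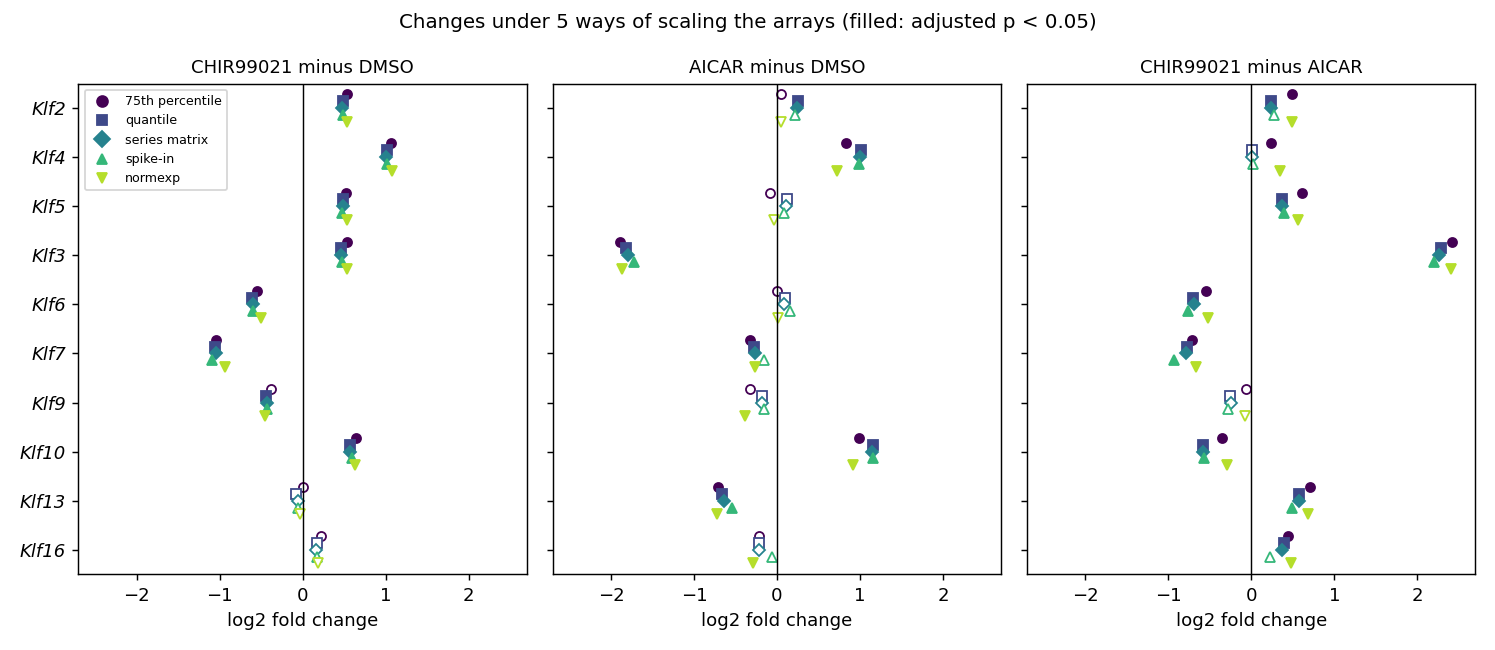
Log2 fold change of each Klf gene when the arrays were scaled by the 75th percentile, by quantiles, by the spike-in probes, after normexp background correction, or as in the deposited series matrix, filled where the limma adjusted p is below 0.05. CHIR99021 minus AICAR for Klf4 lies at 0.23 by the 75th percentile and between 0.0064 and 0.019 by quantile, series matrix and spike-in values.

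Counts in this and the following gene lists stand beside the shares of all features. Those shares were 30.4% higher and 20.5% lower with CHIR99021 than with DMSO, and 30.9% and 29.6% with AICAR. No list was tested against them. All 7 other KLF genes on the list were tested. With CHIR99021 4 were higher and 1 lower than with DMSO (median log2 fold change 0.17). With AICAR 3 were higher and 3 lower (median 0.18), or 3 and 1 with spike-in scaling. With CHIR99021 2 were lower in place of 1 by quantile, spike-in and series matrix scaling, with the replicate block, in the fit to those groups only, and without CHIR99021 replicate 3, AICAR replicate 3 or DMSO replicate 1. Klf15, a metabolic regulator in muscle and liver, rose by 1.10 ± 0.06 with CHIR99021 and Klf8, a repressor of the Klf3 branch, by 0.91 ± 0.06. Klf17, expressed in germ cells, fell by 0.61 ± 0.09, and its other probe gave -0.42. With AICAR, Klf11, a second TGF-beta response gene, rose by 0.69 ± 0.05. Klf1, the erythroid member that gave the family its founding example, fell by 0.91 ± 0.09 with AICAR, and Klf12, another repressor of the Klf3 branch, fell by 0.43 ± 0.06. Klf12 did not pass with spike-in scaling (limma adjusted p = 0.0550). Klf14 was not well above background on any CHIR99021 array. Klf14 did not pass in either comparison with DMSO. Of the genes here and below that are said to have risen or fallen, the highest limma adjusted p was 0.0063.

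Of the 9 Sp genes, 8 were tested and Sp9 was not, and 5 were higher and 1 lower with each compound than with DMSO (median 0.72 with CHIR99021 and 0.34 with AICAR). Without DMSO replicate 2 or without DMSO replicate 3, 0 Sp genes were lower with CHIR99021. Sp5, a well-known Wnt target, was the extreme: it rose by 7.94 ± 0.07 with CHIR99021 and by 1.11 ± 0.07 with AICAR. Sp6 rose by 0.89 ± 0.07 with CHIR99021 and by 1.14 ± 0.07 with AICAR. Sp8, a limb and brain factor, rose by 1.18 ± 0.10 with CHIR99021 and fell by 1.08 ± 0.10 with AICAR, and its probes gave 0.77 to 1.18 and -1.08 to -0.08.

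**Figure D5:**
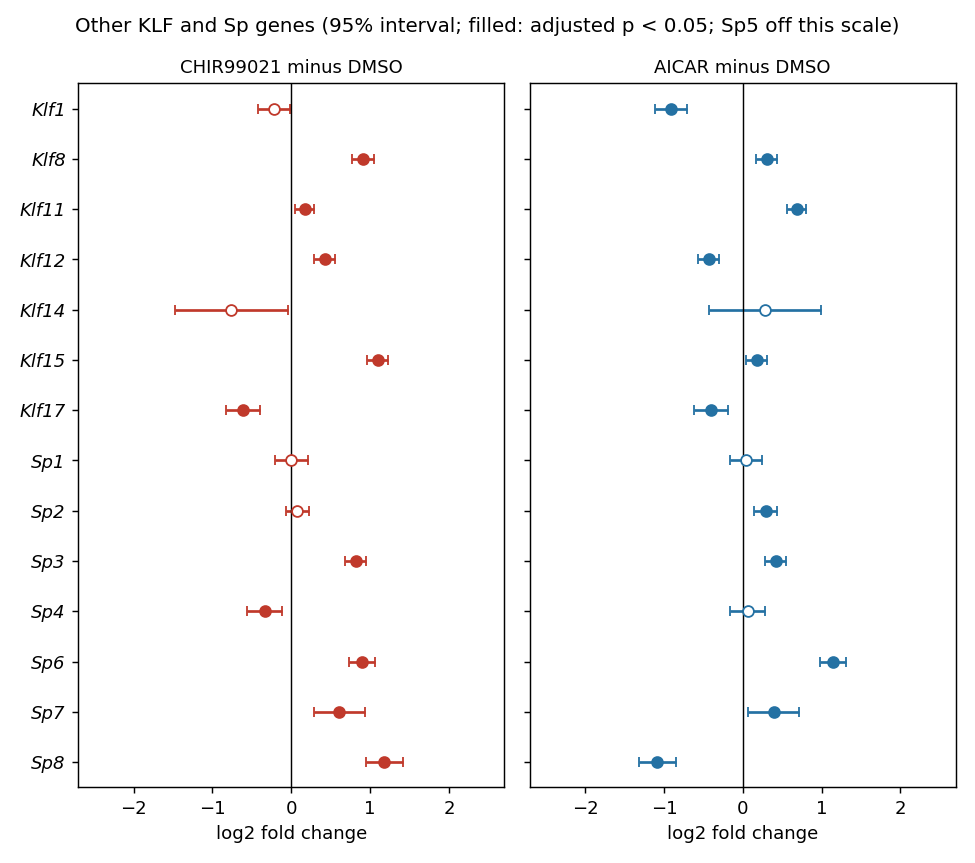
Log2 fold change with its 95% interval of the other KLF genes and of the Sp genes except Sp5, filled where the limma adjusted p is below 0.05. Klf15 (1.10) is the highest KLF gene with CHIR99021, and Sp8 is at 1.18 with CHIR99021 and at -1.08 with AICAR.

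Cofactors through which KLF proteins act were counted over 15 genes. With CHIR99021 4 were higher and 1 lower (median 0.01), and with AICAR 0 were higher and 7 lower (median -0.0097) by limma, with 2 higher at an unadjusted p under 0.05. These counts turned on the scaling, the filter, the fit and single arrays. With AICAR 4 were higher and 4 lower by quantile normalization, 2 and 2 by spike-in scaling and 5 and 5 in the series matrix, and with CHIR99021 0 passed by spike-in scaling. The lower count with CHIR99021 was 2 by quantile, series matrix and normexp scaling and without DMSO replicate 2. It was 0 by the mean of probes, in the fit to those groups only, and without CHIR99021 replicate 1, 2 or 3 or DMSO replicate 1. With AICAR 1 was higher without AICAR replicate 2 or AICAR replicate 3. Hdac3, Wdr5 and Sap30 rose by 0.40 ± 0.07, 0.33 ± 0.06 and 0.25 ± 0.05 with CHIR99021, and none of these 3 passed with spike-in scaling (limma adjusted p = 0.0671, 0.101 and 0.214). Ctbp2, the co-repressor that Klf3 binds, fell by 0.97 ± 0.06 with AICAR. Ncor1, a nuclear receptor co-repressor, fell by 0.79 ± 0.05, but its probes ranged from -0.79 to 0.46. The acetyltransferase gene Ep300 fell by 0.43 ± 0.07 and did not pass with spike-in scaling (limma adjusted p = 0.0977).

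Known upstream regulators of Klf genes were tested for 17 of 18 genes, Mef2c being the one not tested. With CHIR99021 2 were higher and 7 lower (median -0.05), and with AICAR 3 were higher and 8 lower (median -0.08). Of all features, 51% passed with CHIR99021 and 60.5% with AICAR, in either direction. The AICAR counts were 7 and 7 by quantile normalization and in the series matrix, and 4 and 3 by spike-in scaling. Egr1, an immediate early gene of the Erk pathway, fell by 2.54 ± 0.08 with CHIR99021 and fell by 3.27 ± 0.08 with AICAR. Tcf7l1, a repressor that beta-catenin relieves, fell by 1.04 ± 0.09 with CHIR99021, and Mef2a, which induces Klf2 in other cells, rose by 0.89 ± 0.07 (probes 0.49 to 0.89). With AICAR, Foxo3 rose by 0.96 ± 0.14 and Mapk7, the kinase upstream of Mef2 factors, fell by 0.65 ± 0.06.

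Among 16 ubiquitin ligases and peptidases that act on KLF proteins, 5 were higher and 2 lower with CHIR99021 (median 0.10) and 4 were higher and 7 lower with AICAR (median -0.19). With AICAR the counts were 5 and 4 by quantile normalization, 5 and 2 by spike-in scaling and 5 and 3 in the series matrix, and without DMSO replicate 2 the higher count was 2. With CHIR99021 3 were higher by spike-in scaling. Fbxo32, a ligase of the muscle atrophy programme, fell by 1.84 ± 0.12 with CHIR99021 and fell by 0.80 ± 0.12 with AICAR. Fbxo32 was dim, with a mean level of -5.72 with CHIR99021, and was well above background on only 2 CHIR99021 arrays. Usp3 rose by 0.60 ± 0.05 and Smurf1 fell by 0.46 ± 0.10 with CHIR99021. With AICAR, the deubiquitinase gene Bap1 fell by 0.60 ± 0.06 and Wwp1, a ligase of Klf2 and Klf5, rose by 0.43 ± 0.09 (probes 0.43 to 1.04).

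Genes that Klf2, Klf4 and Klf5 bind in embryonic stem cells were split in both directions. Of 19, 10 were higher and 4 lower with CHIR99021 (median 0.26), and 7 were higher and 8 lower with AICAR (median -0.08). With AICAR 9 were higher and 7 lower by quantile normalization and in the series matrix, and 8 and 6 by spike-in scaling. With CHIR99021 2 were lower by spike-in scaling. Lefty1, a Nodal antagonist, fell by 3.05 ± 0.08 with CHIR99021 and fell by 2.57 ± 0.08 with AICAR. Tfcp2l1, a naive-state factor, rose by 2.59 ± 0.05 and by 1.16 ± 0.05 with the same compounds. Gbx2, a homeobox gene of the LIF and Wnt responses, rose by 1.29 ± 0.06 with CHIR99021 and fell by 2.35 ± 0.06 with AICAR.

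Of 15 tested genes listed as early responders to TGF-beta, the pathway that names Klf10, 5 were higher and 8 lower with CHIR99021 (median -0.46). With AICAR 4 were higher and 6 lower (median -0.14). The list includes Id1, Id2, Id3 and Smad6, and whether its genes respond to TGF-beta in these cells was not tested. Id3 and Id1, inhibitors of basic helix-loop-helix factors, rose by 1.46 ± 0.06 and 1.27 ± 0.08 with CHIR99021, while Junb fell by 1.35 ± 0.09. With AICAR, the clock-linked repressor gene Bhlhe40 rose by 2.20 ± 0.08, Id3 fell by 2.16 ± 0.06, and the matricellular gene Ccn2 fell by 1.66 ± 0.08. Glucocorticoid and clock genes, the setting in which Klf9 is best known, were tested for 20 of 21 (Per2 was not). With CHIR99021 9 were higher and 6 lower (median 0.17), and with AICAR 13 were higher and 2 lower (median 0.37). Bhlhe41, counted as higher with AICAR, was well above background on the 3 AICAR arrays and on no other. It was tested only because of those arrays, so its call carries no weight. Over all features, 30.4% were higher and 20.5% lower with CHIR99021, and 30.9% and 29.6% with AICAR. When single arrays were left out, 7 to 10 genes of this list were higher and 4 to 6 lower with CHIR99021. In the same runs 11 to 13 were higher and 2 lower with AICAR, and by spike-in scaling 1 was lower with AICAR. Dusp1, Sgk1 and Nr1d1 rose by 1.19 ± 0.09, 0.81 ± 0.13 and 0.66 ± 0.10 with CHIR99021. With AICAR Nfil3 and Tsc22d3 rose by 1.18 ± 0.06 and 1.06 ± 0.09, and Sgk1 fell by 1.30 ± 0.13.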

How the data were processed

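The processed signal in the deposited scanner files is an intensity on a linear scale, written by Agilent Feature Extraction 10.7.3.1 per the file headers (10.7 in the submitters' processing notes). Log2 values of the same arrays stand in the deposited series matrix, with a centring that no source used here gives, and served only as an alternative.

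Spots that were not controls (59305 per array) were log2 transformed after scaling to the array's 75th percentile. Outlier spots, 136 to 192 per array, were left out. Of 55681 probes, 37739 were kept, those well above background on 3 or more of the 9 arrays. Accessions matched a symbol for 27235 probes, and 16089 of the 26864 features tested had one. All 3 groups entered 1 limma fit (limma 3.58.1, R 4.3.3) with eBayes, without a replicate block, and p-values were adjusted by Benjamini-Hochberg over all features. Calls use an adjusted p below 0.05. The number of arrays limits the precision.

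The members and gene lists were chosen with earlier results of these data known. All members are described, and each list names up to 3 genes past the threshold with the largest absolute change in each comparison with DMSO. For Klf2, Klf4 and Klf5 the 3 nearest genes are named too. Alternatives were quantile normalization, spike-in scaling, the series matrix, normexp on the median signal (offset 50), other filters, outlier spots kept, other rules for probes, a fit to the groups compared only, a trend in eBayes, the replicate block, and each array left out.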

Additional observations from a re-analysis of the deposited data

How the results depend on the processing

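Over the 3 comparisons and 21 alternatives, 585 of 630 values of the Klf genes kept their direction and their side of the threshold. The number of Klf genes lower with AICAR than with DMSO was 5 after normexp background correction and 5 with a trend in eBayes, against 3, and 3 to 5 when single arrays were left out (5 without AICAR replicate 1). With CHIR99021 against DMSO, 5 to 6 were higher and 2 to 3 lower when single arrays were left out. With a trend in eBayes, Klf16 also passed as higher and Klf9 as lower with CHIR99021. With spike-in scaling 3 Klf genes were higher with CHIR99021 than with AICAR. Spike-in scaling also gave 4676 features higher with CHIR99021 than with DMSO, 4118 lower with AICAR than with DMSO and 3908 higher with CHIR99021 than with AICAR. The cause was not tested. Small differences changed sign. AICAR minus DMSO for Klf5 was 0.12 by quantile normalization, 0.081 by spike-in scaling and 0.11 in the series matrix. For Klf6 it was 0.092, 0.16 and 0.085 in the same order, 0.0093 after normexp, and -0.038 to 0.044 when single arrays were left out. Leaving out single arrays gave -0.024 to 0.020 for Klf13 with CHIR99021 minus DMSO and -0.16 to 0.081 for Klf9 with CHIR99021 minus AICAR.

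Same-numbered arrays of different groups did not deviate together: their deviations correlated at -0.056 to 0.088, and 3 of 9 arrays correlated best with their own number. With the replicate block, 5 Klf genes were higher and 2 lower with CHIR99021 than with DMSO, 2 higher and 3 lower with AICAR, and 6 higher and 3 lower with CHIR99021 than with AICAR. The block changed no Klf call.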
